A study of Homo sapiens with 15 samples.

Results

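Osimertinib was compared with its absence in H1975–OR cells, a subline of the human lung adenocarcinoma line H1975 (mutant EGFR) that had acquired resistance to this EGFR inhibitor. The comparison took 12 of the 15 samples of the series, chosen by their labels alone. Each side had 6 samples: Samples 4a to 4c (500 nM osimertinib) and 5a to 5c (500 nM osimertinib and 100 nM 1,25(OH)2D3) held the drug, and Samples 2a to 2c (vehicle) and 3a to 3c (100 nM 1,25(OH)2D3) did not. The vehicle-treated parental H1975 samples carry no osimertinib arm and entered only an alternative fit with all 15 libraries. 1,25(OH)2D3, the vitamin D metabolite that binds the vitamin D receptor, was thus present in 3 samples of each side.

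All 12 samples shared their origin and their handling. H1975–OR was selected from H1975 over weeks in 500 nM osimertinib and is kept in it, so the samples without osimertinib are resistant cells taken off the drug for the time of the experiment and not cells that never met it. Cells were treated for 96 h in medium with charcoal-stripped serum, with doses at 0, 48, and 92 h.  The letters a, b, and c number the replicates. RNA came from separate passages where the methods state it, and they do not state it for the samples with osimertinib, so the p-values measure the spread between these samples, which may in part be technical.

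EGFR is a receptor tyrosine kinase that feeds the RAS, RAF, MEK, and ERK kinase cascade and the PI3K and AKT branch. ERK activity induces a set of transcripts that includes its own brakes, among them the DUSP phosphatases and the SPRY proteins, and transcription factors such as EGR1, FOSL1, and MYC, while AKT keeps FOXO transcription factors out of the nucleus. Osimertinib binds mutant EGFR covalently and blocks its kinase activity. In drug-sensitive cells these transcripts fall with the drug. In resistant cells other receptors or a changed cell state can keep the pathways running, which makes the transcripts that still follow the drug of interest. For H1975–OR the paper's Western blots showed phosphorylated ERK and AKT responding to osimertinib much as in parental H1975. The paper proposes from this that its resistance does not depend on bypass signaling. Those blots measured protein after a shorter treatment than that of the RNA here.

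The estimated counts of the 12 libraries summed to between 4378030 and 6140120. Expression is given as CPM, counts scaled to library size with TMM factors, and a floor of 3 counts corresponds to 0.489 to 0.685 CPM, which covers counting error only. CYP24A1, the vitamin D-inactivating hydroxylase and a direct target of the vitamin D receptor, checked the 1,25(OH)2D3 labels with 3.27 to 9.13 CPM in the 6 libraries without and 666 to 1460 CPM in the 6 libraries with 1,25(OH)2D3, in a contrast that called 1.22% of tested genes. No transcript checks the osimertinib labels directly. Of the lung adenocarcinoma markers, NKX2-1 (31.7 to 97.9 CPM), KRT7, KRT8, and KRT18 were expressed, while NAPSA, SFTPB, and SFTPC did not exceed 1.90 CPM and EPCAM 12.6 CPM. The summed immune markers did not exceed 28.4 CPM, CD3E had 0 counts in 12 of 12 libraries, and the summed fibroblast markers lay between 11.2 and 52.1 CPM. The squamous and endothelial sums did not exceed 4.27 and 12.9 CPM. Sample 3a stood apart among the libraries without osimertinib, with 1.54% of its counts from mitochondrially encoded mRNA against 0.666% to 0.774% in the other 5, and its mean correlation with its own group was 0.907 against 0.932 to 0.953 for the other 11 libraries. It was kept, and counts and calls that changed without it are given beside the results.

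Osimertinib was associated with higher expression of 214 genes and lower expression of 196 genes among 12350 tested. These 410 genes (3.32% of those tested, with 1.73% higher and 1.59% lower) passed an adjusted p of 0.05 in a model with 1,25(OH)2D3 and the replicate letter as covariates. The absolute log2 fold change of the called genes was at least 0.28 with a median of 0.72, and reached 1 for 53 of the higher and 74 of the lower genes. The 6 libraries with and the 6 without osimertinib did not overlap for 191 of the tested genes (1.55%), and 129 of these were called. Most called genes moved the same way in every letter pair, that is, between the libraries of one letter and one 1,25(OH)2D3 condition: 204 of the 214 higher genes were higher in 6 of 6 pairs, and 177 of the 196 lower genes were lower in 6 of 6. The genes were called from these same pairs with the letter in the model. Their agreement is thus in part set by the selection and lends the calls no further support.

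The number of calls rested on how the letters and 1 library were treated. Without the letter in the model 113 genes were called (61 higher, 52 lower), of which 112 were among the 410. Without Sample 3a, 959 were called (471 higher, 488 lower), and 403 of the 410 were among them. Leaving out Samples 2b, 2c, 3b, 3c, 4b, 4c, 5b, or 5c gave between 126 (without 4c) and 164 (without 4b) calls, while leaving out 2a gave 594, 4a 427, and 5a 291. With all letters a left out, 1270 genes were called (640 higher, 630 lower), 371 of them among the 410. By DESeq2 478 genes were higher and 439 lower of 12350 tested. Counts within gene lists under these fits stand beside these larger totals, from 12503 tested genes without Sample 3a and 12269 without letters a.

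**Figure D1:**
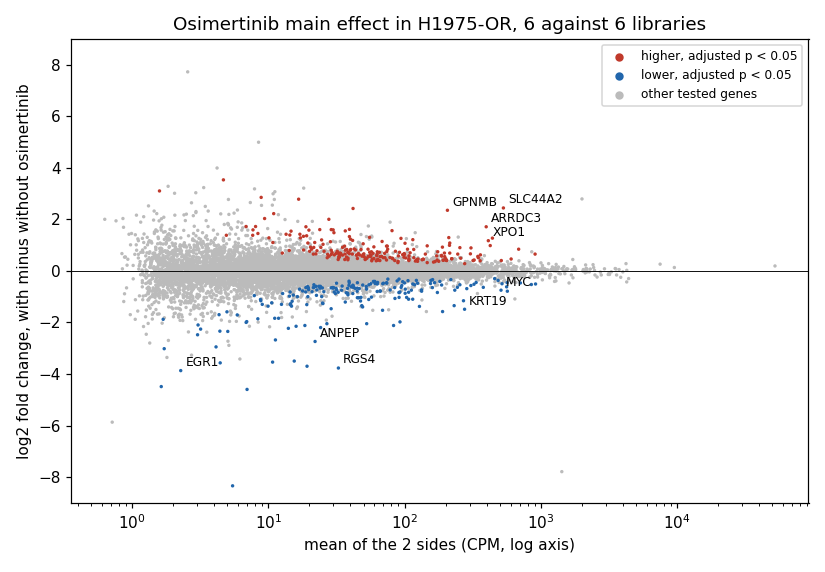
Each point is 1 of the 12350 tested genes, with the mean of the CPM with and without osimertinib on the x axis (log axis) and the log2 fold change, with minus without osimertinib, on the y axis. Red points are the 214 higher and blue points the 196 lower genes, and grey points are the genes without a call.

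The leading rises were led by DUSP15, MDK, and SLC44A2. They are the 12 called genes with the largest log2 fold change that reached a mean of 10 CPM on the higher side and had the same sign without and with 1,25(OH)2D3. SLC44A2, a choline transporter-like protein (chr19:10602455-10644557), ranged over 123 to 265 CPM (median 151) without osimertinib and 618 to 1120 CPM (median 916) with it (log2 fold change 2.44 ± 0.18, adjusted p = 0.000291). GPNMB, a transmembrane glycoprotein of lysosomes and melanosomes (chr7:23246775-23275108), ranged over 54 to 78.9 CPM (median 68.4) without osimertinib and 209 to 451 CPM (median 360) with it (log2 fold change 2.35 ± 0.15, adjusted p = 0.000207). ARRDC3, an alpha-arrestin that takes part in the trafficking and degradation of membrane receptors (chr5:91368631-91383317), ranged over 161 to 225 CPM (median 181) without osimertinib and 470 to 727 CPM (median 644) with it (log2 fold change 1.71 ± 0.13, adjusted p = 0.000291). The libraries with osimertinib exceeded those without it for all 3 of these genes, and the difference was smallest in letter a. GPNMB measured 72, 78.9, and 56.8 CPM in Samples 2a to 2c, 54, 66.7, and 70.2 in 3a to 3c, 279, 416, and 332 in 4a to 4c, and 209, 387, and 451 in 5a to 5c, so that the lowest library with osimertinib (5a) held more than the highest without it (2b).

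Among the other leading rises, DUSP15, a dual-specificity phosphatase, ranged over 0.921 to 3.25 CPM (median 2.41) without osimertinib and 11.3 to 24.2 CPM (median 13.7) with it (log2 fold change 2.85 ± 0.34, adjusted p = 0.00306), and MDK, the heparin-binding growth factor midkine, over 0.368 to 14 CPM (median 2.56) without osimertinib and 13.3 to 56.5 CPM (median 21.6) with it (log2 fold change 2.78 ± 0.31, adjusted p = 0.00221). MDK overlapped between the sides, since Sample 2a without the drug (14 CPM) was just above Sample 5c with it (13.3 CPM), yet it was higher in 6 of 6 letter pairs. ZNF185, an actin-associated LIM domain protein, rose by 2.42, TMPRSS2, a transmembrane serine protease, by 2.22, and AGER, the receptor for advanced glycation end products, by 2.03 on the log2 scale. CRYAB, a small heat shock protein, rose by 2, MYCL, a MYC family transcription factor, by 1.72, the monocarboxylate transporter family member SLC16A6 by 1.72, and the zinc finger gene ZNF763 by 1.71. Of these 12 rises, 11 passed in each of the 12 fits that left out 1 library. AGER did not pass without Sample 2b, 2c, 3c, 4b, or 5c, at adjusted p of up to 0.062. Without the letter in the model MDK (adjusted p = 0.0989), SLC16A6 (0.0883), and CRYAB (0.0672) missed the threshold. AGER lies beside other genes on chromosome 6 and ZNF763 belongs to a family of close copies, so the sharing of reads by Kallisto adds uncertainty to both.

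**Figure D2:**
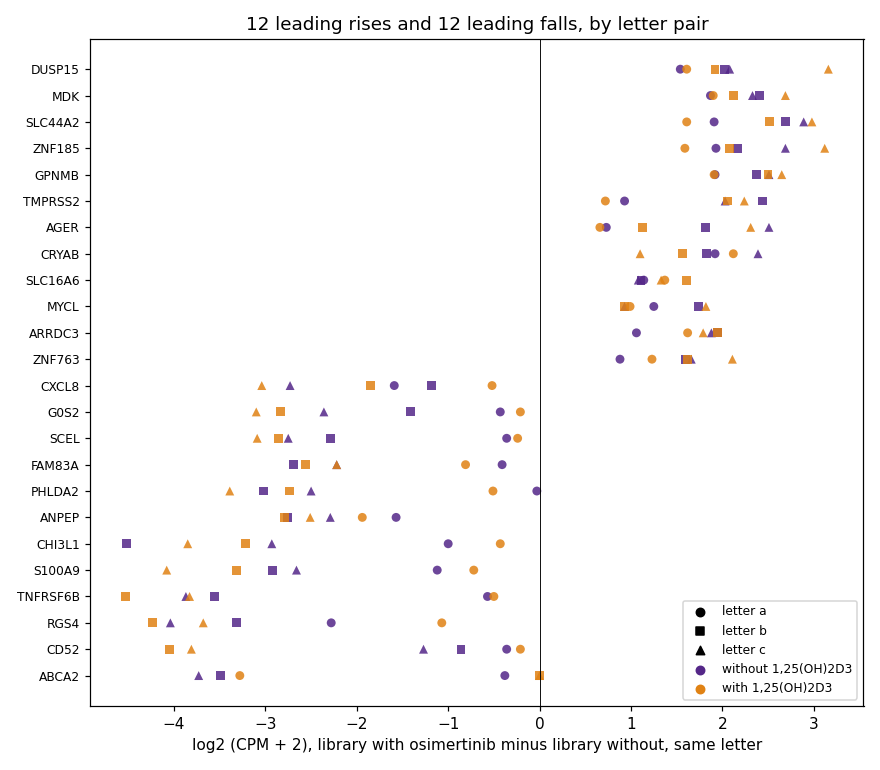
Each row is 1 of the 12 leading rises and 12 leading falls, and each point the difference in log2(CPM + 2) between the library with and the library without osimertinib of the same letter (shape) and 1,25(OH)2D3 condition (color). The rises lie right of 0 in all 6 pairs, and in 10 of the 12 falls the circles of letter a lie closest to 0 in both conditions, as in 9 of the 12 rises.

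The leading falls were chosen by the same rule in the other direction. RGS4, which turns off G protein signaling (chr1:163068871-163076802), ranged over 6.77 to 134 CPM (median 50.7) without osimertinib and 0.694 to 6.27 CPM (median 4.2) with it (log2 fold change -3.77 ± 0.45, adjusted p = 0.00302), and ANPEP, the surface peptidase aminopeptidase N (chr15:89784895-89814852), over 16.4 to 70.9 CPM (median 28) without osimertinib and 2.55 to 11.9 CPM (median 4.27) with it (log2 fold change -2.74 ± 0.23, adjusted p = 0.000491). The sides did not overlap for either gene, and both passed in each of the 12 fits that left out 1 library. ANPEP was the one of the 12 falls that also passed in each 1,25(OH)2D3 condition on its own (log2 fold change -2.5 and -3.04, adjusted p = 0.0321 and 0.0104). CXCL8, the neutrophil chemokine interleukin 8, ranged over 12.3 to 71.9 CPM (median 22) without osimertinib and 3.72 to 9.11 CPM (median 5.25) with it (log2 fold change -2.12 ± 0.38, adjusted p = 0.0171). S100A9, a calprotectin subunit, fell by 3.54, CHI3L1, a secreted chitinase-like protein, by 3.5, and TNFRSF6B, a soluble decoy receptor for FAS ligand, by 3.7 on the log2 scale. TNFRSF6B is also part of a readthrough transcript with its neighbour RTEL1, so its counts could be split between them. FAM83A, an adaptor in EGFR signaling, fell by 2.23, SCEL, a precursor of the cornified envelope of squamous cells, by 2.2, PHLDA2, an imprinted gene with a pleckstrin homology-like domain, by 2.68, and G0S2, an inhibitor of triglyceride lipase, by 2.15.

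CD52 and ABCA2 met the same rule but were carried by few libraries. CD52, a short surface glycoprotein known from lymphocytes, measured 0.813, 1.63, and 4.78 CPM in Samples 2a to 2c, 0.315, 34.9, and 39.1 in 3a to 3c, 0.19, 0, and 0.809 in 4a to 4c, and 0, 0.231, and 0.93 in 5a to 5c, so that its level without osimertinib came from Samples 3b and 3c. ABCA2, an ABC transporter, held 3, 100, and 142 counts in Samples 2a to 2c, 111, 0, and 0 in 3a to 3c, and 1 count in all 6 libraries with osimertinib together. Its fitted log2 fold change of -8.34 depends on the prior count, and no fold is drawn from it. Of the 12 falls, RGS4 and ANPEP passed in each fit that left out 1 library. CXCL8 did not pass without 3b, 4b, or 4c (adjusted p of up to 0.0659), S100A9 without 2b, 4b, 4c, or 5b (up to 0.0615), CD52 without 2c, 3c, 4b, 5b, or 5c (up to 0.1), and TNFRSF6B without 2b, 2c, 3b, 3c, 4b, 4c, or 5c (up to 0.0944). CHI3L1, FAM83A, SCEL, G0S2, and PHLDA2 did not pass without any 1 of the 8 libraries lettered b or c (up to 0.101, 0.0713, 0.0916, 0.122, and 0.133), nor did ABCA2 (up to 0.25), and PHLDA2 and ABCA2 also failed without 5a and ABCA2 without 4a. Without Sample 3a all 12 passed. Without the letter in the model CD52 (adjusted p = 0.0973), G0S2 (0.0643), and ABCA2 (0.0634) missed the threshold. ABCA2 missed it by DESeq2 too (adjusted p = 0.0836).

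Transcripts of the ERK pathway's output and negative feedback had mostly lower estimates with osimertinib. Of the 17 tested genes of this list, 8 passed the test as lower and 1 as higher, against 1.59% and 1.73% of all tested genes, 15 had a negative estimate, and the median log2 fold change was -0.67 against -0.01 over all tested genes. The median difference of the list was -0.19 and -0.39 in the pairs of letter a and between -0.49 and -0.80 in those of letters b and c.

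Among the feedback phosphatases, DUSP5, which acts on ERK in the nucleus, ranged over 16.2 to 24.3 CPM (median 21.8) without osimertinib and 5.89 to 13.9 CPM (median 7.32) with it (log2 fold change -1.37 ± 0.23, adjusted p = 0.0132), and DUSP4 over 13.1 to 29.8 CPM (median 17.5) without osimertinib and 7.44 to 11.6 CPM (median 9.2) with it (log2 fold change -0.98 ± 0.21, adjusted p = 0.037). The sides did not overlap for either. DUSP6, the cytoplasmic ERK phosphatase, measured from 3.46 to 27.3 CPM without and from 4.06 to 9.11 CPM with osimertinib and did not pass (log2 fold change -1.07 ± 0.34, adjusted p = 0.127). In letter a DUSP6 was at 3.86 and 3.46 CPM without the drug and at 4.56 and 4.37 CPM with it, so that the difference lay in letters b and c. DUSP6 passed without Sample 3a (log2 fold change -1.29, adjusted p = 0.0417), with letters b and c only (-1.65, 0.00751), and by DESeq2 (adjusted p = 0.0423). DUSP7 had non-overlapping sides and missed the threshold (log2 fold change -0.88 ± 0.29, adjusted p = 0.137).

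Of the SPRY proteins, which block RAS activation downstream of receptors, SPRY2 ranged over 53.2 to 90.8 CPM (median 79.1) without osimertinib and 42.2 to 64.1 CPM (median 51.1) with it (log2 fold change -0.51 ± 0.09, adjusted p = 0.0143) and SPRY4 over 3.86 to 46.4 CPM (median 17.7) without osimertinib and 2.66 to 11.9 CPM (median 9.36) with it (log2 fold change -1.31 ± 0.3, adjusted p = 0.0422). Both were lower in 6 of 6 letter pairs although their ranges overlapped, and letter a lay below letters b and c on both sides. SPRY1 did not pass (log2 fold change -0.62, adjusted p = 0.0936, and 0.0451 by DESeq2), nor did the related SPRED2 (-0.67, adjusted p = 0.272). SPRED1 did not pass either, and its estimate was positive (0.43, adjusted p = 0.131). With letters b and c only SPRED1 passed as higher (0.67, adjusted p = 0.0105).

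Among the nuclear targets, MYC, the transcription factor that drives growth and ribosome production, ranged over 437 to 885 CPM (median 637) without osimertinib and 255 to 531 CPM (median 350) with it (log2 fold change -0.75 ± 0.1, adjusted p = 0.0062), and was lower in 6 of 6 pairs. CCND1, the cyclin that opens the G1 phase, ranged over 262 to 971 CPM (median 854) without osimertinib and 261 to 556 CPM (median 465) with it (log2 fold change -0.62 ± 0.12, adjusted p = 0.0248), with 262 CPM in Sample 2a and 263 CPM in Sample 4a, so that its fall lay in the other 5 pairs. FOSL1, an AP-1 subunit, ranged over 20.5 to 37.5 CPM (median 27.6) without osimertinib and 12 to 23.1 CPM (median 16.3) with it (log2 fold change -0.74 ± 0.15, adjusted p = 0.0248), and PHLDA1, another pleckstrin homology-like gene induced by ERK, over 39.8 to 61.7 CPM (median 46.9) without osimertinib and 17.1 to 44.3 CPM (median 23.3) with it (log2 fold change -0.93 ± 0.18, adjusted p = 0.0234). ETV1, a PEA3 family factor, was the 1 higher gene of the list (log2 fold change 0.4 ± 0.09, adjusted p = 0.0449) and higher in 6 of 6 pairs, with 22.8 to 46.2 CPM in the libraries of letter a and 96.1 to 185 CPM in the others, and ETV4 and ETV5 did not pass (adjusted p = 0.427 and 0.228). EPHA2 did not pass either (adjusted p = 0.735). The count of 8 lower genes fell to 1 (DUSP5) without the letter in the model, was 9 without Sample 3a, and lay between 2 (without 2c, 3c, or 4c) and 9 when 1 library was left out. MYC passed in each of those 12 fits but not without the letter (adjusted p = 0.19), DUSP5 in all but that without 4c (adjusted p = 0.0502), and SPRY2 in all but those without 2c or 3c (up to 0.0544). CCND1, FOSL1, PHLDA1, DUSP4, and SPRY4 did not pass without any 1 of the libraries lettered b or c, at adjusted p of up to 0.121, and the call of ETV1 was lost there too (up to 0.129).

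**Figure D3:**
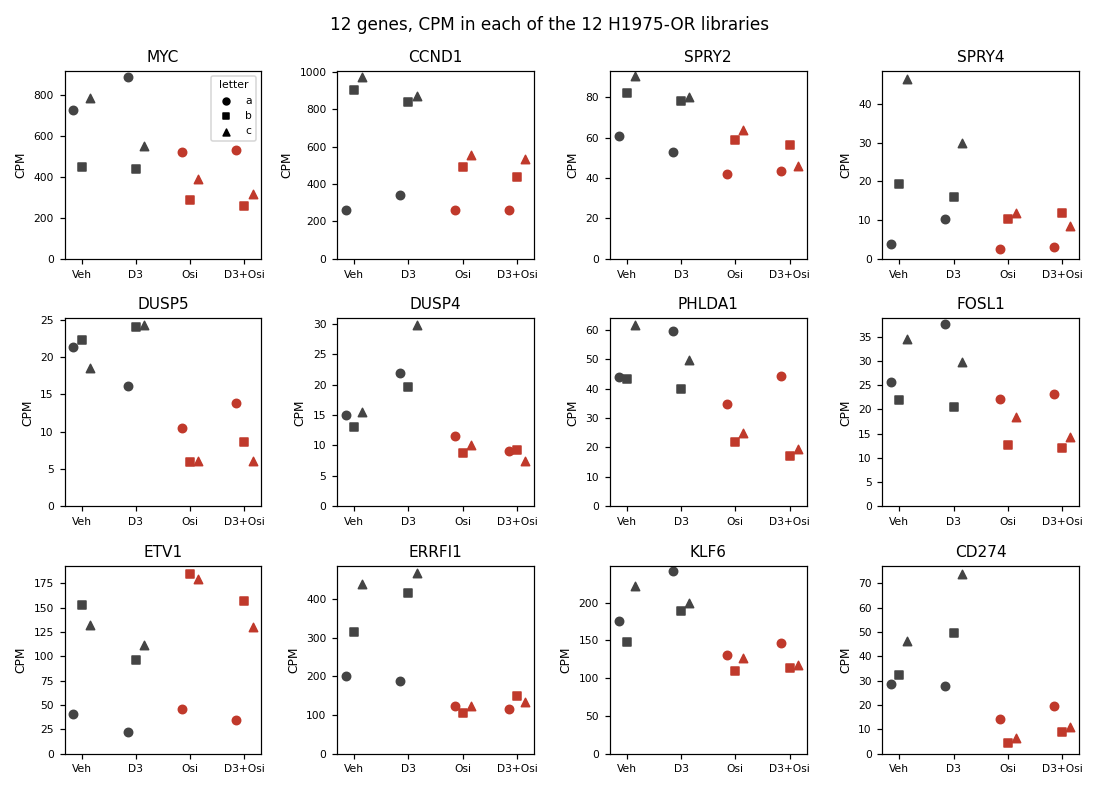
Each panel is 1 gene, with CPM on the y axis from 0 and the groups vehicle (Veh), 1,25(OH)2D3 (D3), osimertinib (Osi), and both (D3+Osi) on the x axis. Each point is 1 library, the shape gives its letter, and libraries with osimertinib are red. The sides are apart for DUSP4, DUSP5, ERRFI1, KLF6, and CD274, and for SPRY4 and ETV1 letter a lies below letters b and c in every group.

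Of 12 tested immediate early genes 2 were lower and 0 higher (median log2 fold change -0.41), against 1.59% and 1.73% of all tested genes. Without Sample 3a, 3 immediate early genes were lower. KLF6, a zinc finger factor, ranged over 148 to 242 CPM (median 194) without osimertinib and 110 to 146 CPM (median 122) with it (log2 fold change -0.65 ± 0.09, adjusted p = 0.0069). EGR1, the early growth response factor, was low in every library, with 6, 38, 33, 17, 20, and 19 counts in Samples 2a to 3c and 0 to 4 counts in the libraries with osimertinib (adjusted p = 0.0217), and it lost its call without any 1 of the libraries lettered b or c (up to 0.0744). Of 12 tested genes for EGFR family receptors, ligands, and EGFR inhibitors, 1 was lower and 0 higher, against the same shares of all tested genes. Without Sample 3a 3 were lower and 1 higher, and by DESeq2 3 were lower and 0 higher. The lower gene was ERRFI1, a cytoplasmic inhibitor that binds the EGFR kinase domain (chr1:8011727-8026309), which ranged over 188 to 468 CPM (median 364) without osimertinib and 106 to 149 CPM (median 123) with it (log2 fold change -1.35 ± 0.17, adjusted p = 0.00439). Every library with osimertinib was below every library without it, and the gene passed in each fit that left out 1 library. EGFR itself ranged over 103 to 238 CPM (median 189) without osimertinib and 107 to 204 CPM (median 137) with it and did not pass (log2 fold change -0.35 ± 0.14, adjusted p = 0.211), except when Sample 2a was left out (adjusted p = 0.0488). ERBB2 ranged over 100 to 176 CPM (median 141) without osimertinib and 100 to 322 CPM (median 249) with it (log2 fold change 0.58 ± 0.22, adjusted p = 0.202). ERBB2 was at 100 and 100 CPM in the letter a pair without 1,25(OH)2D3, at 176 and 121 CPM in that with it, whereas in letters b and c the libraries without the drug held 108 to 165 CPM and those with it 236 to 322 CPM, and it passed when all letters a were left out (log2 fold change 1, adjusted p = 0.00108) and without Sample 3a (adjusted p = 0.0158). The ligands HBEGF (adjusted p = 0.264) and NRG1 (0.431) and the inhibitor LRIG1 (0.286) did not pass, and HBEGF did without Sample 3a (adjusted p = 0.0454). AREG, the EGFR ligand amphiregulin, was below the level for named genes and was chosen after its values were seen. Its mean was 3.34 CPM without and 0.265 CPM with osimertinib, the latter below the floor of 3 counts, with no overlap between the sides, and it missed the threshold (adjusted p = 0.0561). None of the 17 tested bypass receptors and ligands (MET, AXL, FGFR, and IGF1R among them) passed in either direction, with a median of 0.16. By unadjusted p under 0.05, 2 and 1 of them were higher and lower. With letters b and c only, 2 of 16 tested members passed as higher and 0 as lower, where 640 of 12269 tested genes were higher. CD274, the immune checkpoint ligand programmed death ligand, was noticed after the values were seen. It ranged over 27.7 to 73.7 CPM (median 39.3) without osimertinib and 4.26 to 19.5 CPM (median 10.1) with it (log2 fold change -2.05 ± 0.33, adjusted p = 0.0111), with no overlap, and PTGS2, the inducible cyclooxygenase, noticed in the same way, ranged over 9.96 to 182 CPM (median 86.2) without osimertinib and 1.33 to 31.9 CPM (median 22.9) with it (log2 fold change -2.05 ± 0.27, adjusted p = 0.0051).

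Genes of the G2 and M phases had mostly higher estimates with osimertinib. Of 50 tested genes 11 passed as higher and 0 as lower, against 1.73% and 1.59% of all tested genes, 45 had a positive estimate, and the median log2 fold change was 0.49. The median difference was positive in each of the 6 letter pairs, between 0.20 and 0.72. In bulk RNA a larger share of cells in these phases and more of these transcripts per cell cannot be told apart. The paper's flow cytometry found a larger fraction of resistant cells before S phase with osimertinib plus the vitamin D metabolite than with vehicle. That contrast changes both agents at once and is not the osimertinib effect given here. The share of cells in each phase was not tested here. HMGB2, a chromatin protein abundant in dividing cells, ranged over 22.5 to 83.8 CPM (median 36.9) without osimertinib and 89.3 to 136 CPM (median 122) with it (log2 fold change 1.56 ± 0.19, adjusted p = 0.00313), with no overlap. CDK1, the kinase that drives entry into mitosis, ranged over 20.4 to 65.3 CPM (median 30) without osimertinib and 39.3 to 85.8 CPM (median 62.7) with it (log2 fold change 0.83 ± 0.13, adjusted p = 0.00921), and ANLN, the actin-binding protein of the cleavage furrow, over 96.3 to 350 CPM (median 182) without osimertinib and 179 to 445 CPM (median 299) with it (log2 fold change 0.65 ± 0.1, adjusted p = 0.0091). Each was higher in 6 of 6 letter pairs, and letter a was above letters b and c of the same group for CDK1 and ANLN. The other higher genes were the condensin subunit SMC4 (0.96), the spindle proteins DLGAP5 (0.84), NUSAP1 (0.64), and CKAP2 (0.4), the centromere protein CENPF (0.69), the checkpoint kinase TTK (0.69), and the cytokinesis genes KIF23 (0.61) and ECT2 (0.51), with log2 fold changes in brackets. CCNA2, the cyclin of S and G2, is not in that list and was noticed after its value was seen (log2 fold change 0.85 ± 0.11, adjusted p = 0.0055). The count of 11 was 15 without Sample 3a and between 6 (without 2b, 4b, or 5c) and 15 with 1 library left out. Without the letter it was 2 (HMGB2 and SMC4). HMGB2, CDK1, ANLN, SMC4, DLGAP5, and NUSAP1 passed in each of the fits that left out 1 library, and TTK, KIF23, CENPF, CKAP2, and ECT2 were lost in some, at adjusted p of up to 0.124.

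The promoters of these genes are shown because late cell cycle genes are known to carry a CHR element (TTTGAA) close to CCAAT boxes, through which the DREAM and MuvB complexes and NF-Y act. In the RefSeq promoter table of GRCh38.p14, 250 bases before the first listed start of a gene were searched on both strands. The CHR letters were found in 6 of the 9 higher G2 and M genes with an entry and in 21 of 42 of all tested list members with one, against 811 of 9611 tested genes with an entry (8.44%) and 13.6% of all 27305 promoters. CCAAT was found in 6 of the 9, in 28 of 42 of all tested list members, and in 34.8% of tested genes. The share was 66.7% in both the called and all tested members. Of all called genes with an entry, the CHR letters were found in 28 of 157 higher and 14 of 137 lower ones (17.8% and 10.2%). HMGB2 and TTK were not in the table. The 4 higher genes with both motifs were CDK1, DLGAP5, ECT2, and KIF23, shown from 5′ to 3′ with the CHR and CCAAT letters of either strand in capitals. A match of letters is not a binding site.

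The 250 bases before the start of CDK1 (chr10:60778081-60778330, plus strand), DLGAP5 (chr14:55191586-55191835, minus strand), ECT2 (chr3:172750476-172750725, plus strand), and KIF23 (chr15:69414099-69414348, plus strand) are as follows.
CDK1: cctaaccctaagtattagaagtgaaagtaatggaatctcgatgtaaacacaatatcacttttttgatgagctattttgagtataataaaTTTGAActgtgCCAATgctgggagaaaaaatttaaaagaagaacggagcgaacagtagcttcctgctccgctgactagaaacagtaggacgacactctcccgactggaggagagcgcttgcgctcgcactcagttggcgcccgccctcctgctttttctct
DLGAP5: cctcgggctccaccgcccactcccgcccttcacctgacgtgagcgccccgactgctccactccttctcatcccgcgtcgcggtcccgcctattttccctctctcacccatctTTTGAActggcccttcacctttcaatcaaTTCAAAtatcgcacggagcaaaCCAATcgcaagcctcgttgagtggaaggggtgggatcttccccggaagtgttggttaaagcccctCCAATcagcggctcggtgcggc
ECT2: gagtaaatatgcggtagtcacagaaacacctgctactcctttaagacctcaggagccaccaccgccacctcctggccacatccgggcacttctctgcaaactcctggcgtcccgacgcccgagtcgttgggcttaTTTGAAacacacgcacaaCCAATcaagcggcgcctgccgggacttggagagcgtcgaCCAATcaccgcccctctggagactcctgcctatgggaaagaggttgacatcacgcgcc
KIF23: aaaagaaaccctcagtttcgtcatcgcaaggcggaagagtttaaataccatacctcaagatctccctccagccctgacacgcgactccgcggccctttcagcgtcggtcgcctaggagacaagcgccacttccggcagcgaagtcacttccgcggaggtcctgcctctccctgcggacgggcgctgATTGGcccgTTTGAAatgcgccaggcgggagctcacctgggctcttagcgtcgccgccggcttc

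In CDK1 the CHR letters began 161 bases and the CCAAT letters 150 bases before the start, in ECT2 the CHR letters began at 115 bases and CCAAT at 97 and 58 bases, and in KIF23 they began at 55 and 64 bases. DLGAP5 held the CHR letters at 138 and 109 bases and CCAAT at 87 and 22 bases. Of 43 tested S phase genes 1 was higher and 0 lower, against 1.73% and 1.59% of all tested genes. In this list 34 genes had a positive estimate, and the median was 0.23. Without Sample 3a 1 was higher and 1 lower. The G1 list was split, with 1 of 21 higher and 3 lower, against 1.73% and 1.59% of all tested genes. CDK6, a kinase partner of the D cyclins, was higher (0.41), and CCND1, CCND3 (-0.88), and the CDK inhibitor CDKN1C (-0.85) were lower. CDKN1C passed in every fit that left out 1 library, and CCND3 ranged over 27 to 50.5 CPM (median 44.3) without osimertinib and 14.2 to 26.2 CPM (median 22.1) with it with no overlap. CDK6 and CCND3 lost their calls without any 1 of the libraries lettered b or c, at adjusted p of up to 0.119.

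Targets of FOXO, the factors that AKT restrains, did not share a direction, with 2 of 18 higher and 3 lower and a median of 0.07. These counts stand against 1.73% higher and 1.59% lower of all tested genes, and 2 targets were lower without Sample 3a. CCNG2, an atypical cyclin linked to cell cycle exit, ranged over 9.03 to 25 CPM (median 20.1) without osimertinib and 37.8 to 81.4 CPM (median 49.2) with it (log2 fold change 1.55 ± 0.22, adjusted p = 0.00663) with no overlap, and PIK3IP1, an inhibitor of PI3 kinase, rose by 0.67 on the log2 scale (adjusted p = 0.0277). The adaptor IRS1 (-0.62), the transcription coregulator CITED2 (-0.55), and the pseudokinase TRIB2 (-1.84) were lower. TRIB2 was at 2.03 CPM in Sample 2a and 2.09 CPM in Sample 4a, and its fall lay in the other 5 pairs. IRS1 lost its call without Sample 3a (adjusted p = 0.0506), the one named call that did, and without 4a or any library lettered b or c (up to 0.132). CCNG2 passed in every fit that left out 1 library, and PIK3IP1, CITED2, and TRIB2 were lost in several (up to 0.0941).

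Of 21 tested ATF4 and unfolded protein response genes 5 were higher and 0 lower, against 1.73% and 1.59% of all tested genes. The median was 0.03, against -0.01 over all tested genes. Genes lower in this list appeared in other fits, with 5 higher and 3 lower without Sample 3a, 6 and 3 with letters b and c only, and 5 and 2 by DESeq2. PHGDH, the first enzyme of serine synthesis, ranged over 33 to 57.6 CPM (median 41.3) without osimertinib and 54.4 to 81.4 CPM (median 74.8) with it (log2 fold change 0.74 ± 0.1, adjusted p = 0.00663). ASNS, asparagine synthetase (0.55), PSAT1, the next enzyme of serine synthesis (0.47), and the stress factors ATF4 (0.39) and DDIT3 (0.92) also passed. ATF4 and DDIT3 did not overlap between the sides. PHGDH passed in every fit that left out 1 library, DDIT3 did not without 2c, 3b, 4c, 5b, or 5c (up to 0.0542), and ASNS, PSAT1, and ATF4 were lost without most of the libraries lettered b or c (up to 0.137). SLC7A11, the cystine transporter that ATF4 and NRF2 both induce, was higher (log2 fold change 0.68 ± 0.15, adjusted p = 0.0346) as the 1 of 11 tested NRF2 targets to pass (1 other was lower without Sample 3a), and lost its call without any 1 of the libraries lettered b or c (up to 0.102).

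Of 20 tested ribosome biogenesis genes, many of them known as MYC targets, 3 were lower and 1 higher, against 1.59% and 1.73% of all tested genes. In this list 17 genes had a negative estimate, and the median log2 fold change was -0.35. RRS1 ranged over 45.8 to 59.8 CPM (median 53.9) without osimertinib and 19.9 to 36.1 CPM (median 32.2) with it (log2 fold change -0.88 ± 0.14, adjusted p = 0.00921), RRP9 fell by 0.64, and BOP1 by 0.46 on the log2 scale, each an assembly factor of ribosomal subunits and each with no overlap between the sides. ODC1, the first enzyme of polyamine synthesis and a MYC target too, was higher (log2 fold change 0.56 ± 0.09, adjusted p = 0.0114). The pairs of letter a had list medians of -0.15 and 0.06 and those of letters b and c between -0.24 and -0.70. The 3 lower genes were 10 without Sample 3a, where 488 of 12503 tested genes were lower. With letters b and c only they were 11, where 630 of 12269 were lower. The count was 1 (RRS1) without the letter in the model or without any 1 of the libraries lettered b or c.

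Cell state lists were mixed. Of 22 tested epithelial genes 2 were higher and 4 lower, against 1.73% and 1.59% of all tested genes. Without Sample 3a, 3 epithelial genes were higher and 4 lower. KRT19, a keratin of simple epithelia (chr17:41523617-41528308), ranged over 209 to 609 CPM (median 401) without osimertinib and 96.5 to 198 CPM (median 138) with it (log2 fold change -1.49 ± 0.24, adjusted p = 0.0109), with no overlap and a call in every fit that left out 1 library. LAMB3, a laminin chain (-1.38), JUP, plakoglobin of junctions (-0.8), and CDH1, E-cadherin (-1.04), were lower, and the transcription factor ELF3 (1.08) was among the higher genes. CDH1 was also higher with 1,25(OH)2D3 (log2 fold change 3.83 ± 0.25, adjusted p = 7.52e-05). It measured 5.16 to 9.35 CPM with vehicle, 105 to 150 CPM with 1,25(OH)2D3, 2.43 to 6.66 CPM with osimertinib, and 39.1 to 67.4 CPM with both, so that the libraries with both agents lay below those with 1,25(OH)2D3 alone without overlap. Its log2 fold change was -0.56 without and -1.34 with 1,25(OH)2D3, and neither passed on its own (adjusted p = 0.684 and 0.0808). Of 20 mesenchymal genes FSTL1, a secreted follistatin-like protein, was higher (0.65) and S100A4, a calcium-binding protein, lower (-0.49), with a median of -0.02, and 2 were higher and 1 lower without Sample 3a. Apart from KRT19, these epithelial and mesenchymal calls were lost without most libraries lettered b or c, at adjusted p of up to 0.151.

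Of 14 tested vitamin D receptor targets, 2 were lower and 0 higher with osimertinib (2 and 1 without Sample 3a), against 1.59% and 1.73% of all tested genes. The lower genes were G0S2 and THBD, the anticoagulant receptor thrombomodulin. THBD measured 2.44, 2.66, and 2.1 CPM in Samples 2a to 2c, 10.9, 11.3, and 15.3 in 3a to 3c, 0, 0.812, and 0.809 in 4a to 4c, and 3.38, 0.694, and 2.56 in 5a to 5c. It was highest in Samples 3a to 3c and lower in each library with osimertinib than in its letter partner (log2 fold change -2.34 ± 0.51, adjusted p = 0.0372). VDR, the receptor, was noticed after its value was seen. It ranged over 26.6 to 52 CPM (median 34.8) without osimertinib and 17.7 to 28.6 CPM (median 23.4) with it (log2 fold change -0.65 ± 0.13, adjusted p = 0.0293) and was lower in 6 of 6 pairs, without a call when any 1 of the libraries lettered b or c was left out (up to 0.0942). CYP24A1 did not pass for osimertinib (log2 fold change -0.16, adjusted p = 0.718). Of 20 YAP and TEAD targets, ANKRD1, a mechanosensitive cofactor, was higher with no overlap (175 to 421 CPM (median 288) without osimertinib and 470 to 613 CPM (median 573) with it, log2 fold change 0.98 ± 0.14, adjusted p = 0.00683), and GADD45A, a growth arrest gene, lower (-0.82). Of all tested genes 1.73% were higher and 1.59% lower. Without Sample 3a, 5 of this list were higher and 2 lower (median 0.30 against 0.16), where 471 and 488 of 12503 tested genes were. With letters b and c only, 7 were higher and 3 lower, where 640 and 630 of 12269 tested genes were. CYP1A1 (1.54) and TIPARP (0.6), both induced by the aryl hydrocarbon receptor, were higher among 9 genes of drug efflux and xenobiotic metabolism, TIPARP with no overlap. Of 22 lysosome genes 2 were higher, GPNMB among them, of 24 cholesterol genes the desaturase SC5D (0.74) was, of 24 glycolysis and hypoxia genes the kinase PFKP (0.42) and the peptide hormone gene ADM (1.38) were, and of 19 interferon-stimulated genes IFIT3 (0.5) was, with 0 lower in each of these lists. Called members this few stand beside 1.73% higher among all tested genes, and nothing is read from them about the lists. Without Sample 3a 3 xenobiotic, 3 lysosome, 2 cholesterol, 2 glycolysis and hypoxia, and 2 interferon-stimulated genes were higher, and 1 of the last was lower. No gene passed among 11 fatty acid synthesis, 14 MHC class I presentation, 13 BCL2 family, or 13 mitochondrially encoded genes, where 2, 0, 5, and 0 genes had an unadjusted p under 0.05. DESeq2 and the fit without Sample 3a each called 1 fatty acid and 1 BCL2 family gene as higher. When 1 library was left out, ANKRD1, TIPARP, and PFKP passed each time, IFIT3 was lost without 2c or 3b (up to 0.053), and CYP1A1, ADM, SC5D, GADD45A, and THBD were lost without several of those lettered b or c (up to 0.119).

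**Figure D4:**
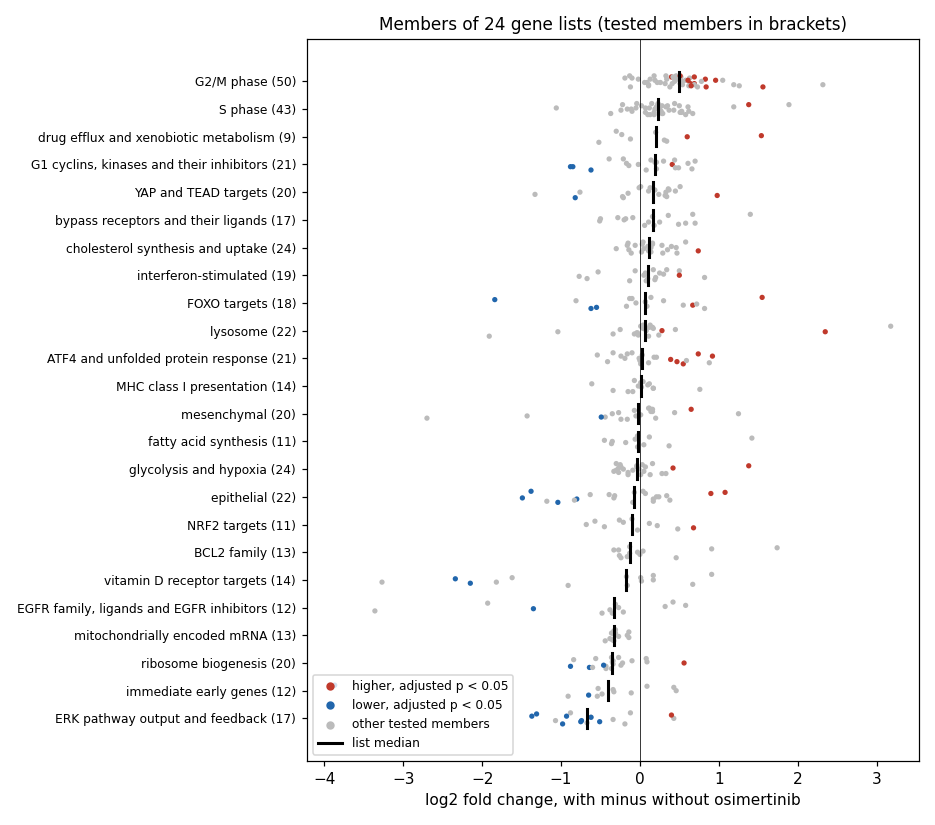
Each row is 1 of the 24 gene lists, ordered by its median, with the number of tested members in brackets, and each point is the log2 fold change of 1 member, with minus without osimertinib. Red and blue points passed an adjusted p of 0.05 and black bars are medians, which run from -0.67 for ERK pathway output to 0.49 for the G2/M phase.

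The osimertinib effect was then taken apart by 1,25(OH)2D3, with 3 libraries against 3 in each condition and no library shared between the 2 contrasts. Without 1,25(OH)2D3, 8 genes passed (6 higher, 2 lower, 0.0648% of tested genes), and with 1,25(OH)2D3, 40 passed (31 higher, 9 lower, 0.324%). Of the 8 genes, 8 had the same sign with 1,25(OH)2D3, of the 40 genes 37 had the same sign without it, and 7 were called in both. GPNMB (log2 fold change 2.28 ± 0.23 and 2.42 ± 0.23), SLC44A2 (2.54 ± 0.27 and 2.35 ± 0.27), ARRDC3 (1.62 and 1.81), ZNF185 (2.46 and 2.37), and ANPEP (-2.5 and -3.04) were among the 7. Across all tested genes the correlation of the 2 effects was 0.29 (n = 12350 genes), and 0.41 among genes with a mean of at least 10 CPM, as a description, since genes are not independent and the 2 effects share the letter terms of the model. Both counts moved with the setting. Without 3a they were 35 and 183, and when 1 library was left out they lay between 0 and 35 and between 0 and 183.

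No gene differed in its osimertinib effect between the 2 conditions at an adjusted p of 0.05 by edgeR's quasi-likelihood test (0 of 12350 tested, 0%, smallest adjusted p 0.348), where 466 genes had an unadjusted p under 0.05 and DESeq2 called 14 (2 higher, 12 lower). This does not show that the effects were alike. The genes with the smallest p of the difference are given as values. ANKRD1 had osimertinib effects of 0.6 without and 1.36 with 1,25(OH)2D3 on the log2 scale (difference 0.76 ± 0.16, unadjusted p = 0.000808, adjusted p = 0.99). With vehicle it stood at 341 to 421 CPM and with 1,25(OH)2D3 alone at 175 to 235 CPM, while the groups with osimertinib overlapped (496 to 613 and 470 to 577 CPM). The ubiquitin ligase RNF149 had effects of -0.16 and 0.54 (unadjusted p = 0.00243), and FAM76A of -1.34 and 1.22 (unadjusted p = 0.00138) at no more than 8.1 CPM. In the other direction stood STK11IP, with 0 counts in each of Samples 2a to 2c, 145, 65, and 5 in 3a to 3c, 49, 54, and 38 in 4a to 4c, and 7, 6, and 3 in 5a to 5c.

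**Figure D5:**
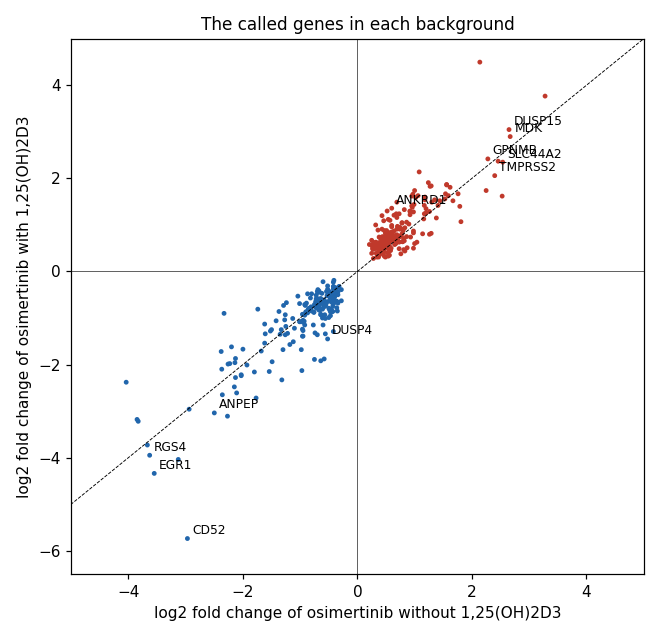
Each point is a gene called for the osimertinib main effect, with its log2 fold change without 1,25(OH)2D3 on the x axis and with it on the y axis. Red genes were higher and blue genes lower, the dashed line marks equal effects, and 408 of the 410 genes are drawn, since ABCA2 and PROM2 lie outside the axes.

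Letter a differed from letters b and c already without osimertinib in many called genes. Among the 196 lower genes, Samples 2a and 3a both lay below all of 2b, 2c, 3b, and 3c in 76 (38.8%), against 15.2% of all tested genes. Among the 214 higher genes they lay above all 4 in 71 (33.2%), against 15.4%. These counts rank libraries without osimertinib only and do not measure the effect. For SPRY4, letter a lay below letters b and c with osimertinib as well. Among the leading genes, the pairs of letter a differed least in both conditions for 9 of 12 rises and 10 of 12 falls. RGS4 had 31.7 and 6.77 CPM in 2a and 3a and 49 to 134 CPM in the other 4, SCEL 10.6 and 14.5 CPM against 42.8 to 69.9, and STMN3, a stathmin family gene noticed after its value was seen, 54.9 and 69.3 CPM against 167 to 237. Letter a also carried the 3 highest shares of mitochondrially encoded mRNA (1.54% in 3a and 1.04% in 4a and in 5a). Sample 2a did not share this, with 0.746% against 0.765% in 2b and 0.774% in 2c. Whether the letters mark passages, days, or batches is not stated for these samples, and the part of the letter in the size of the effect was not tested.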

How the data were processed

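Total RNA of 15 samples was sequenced paired-end after rRNA removal (TruSeq Stranded Total RNA). The authors quantified transcripts with Kallisto on hg38 and summed them per gene with tximport, and deposited estimated counts per gene, which were rounded to whole numbers here. Per the submitters' processing notes the tools were CASAVA 1.8.2, STAR 2.5.2b, and kallisto 0.43.0. The transcript annotation is not given in the sources used here.

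Of the 12 H1975–OR libraries, 12350 genes passed edgeR's filterByExpr (minimum count 10, minimum total 15). Counts were scaled by TMM, and osimertinib was tested with edgeR 4.0.16 (quasi-likelihood F-test, R 4.3.3) in an additive model with 1,25(OH)2D3 and the replicate letter. The effects in each 1,25(OH)2D3 condition and their difference came from the same model with an interaction term. P-values were Benjamini-Hochberg adjusted over all tested genes, with a threshold of 0.05. Standard errors are the absolute log2 fold change over the square root of F. DESeq2 1.42.0 was an alternative.

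The letter is in the main model because the comparison was defined with it. Deviations from the group means correlated between -0.02 and 0.47 in the 18 same-letter pairs, with 16 over 0.1, and between -0.32 and 0.13 otherwise, so not every pair passed and the letters are treated as a shared number only.

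Named genes were the 12 called genes with the largest rise and the 12 with the largest fall at a mean of at least 10 CPM on the higher side and with the same sign without and with 1,25(OH)2D3, every called member of the gene lists, members of the ERK and EGFR lists at 10 CPM or more, the 3 genes in each direction with the smallest interaction p, and CYP24A1. Others are said to have been noticed after their values were seen. The members and the lists were chosen with earlier results of these data known. The libraries of the parental line were not used in the main fit, and Sample 3a, which the study left out, was kept. Values of some genes that met these rules are not reported here.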

Additional observations from a re-analysis of the deposited data

Results flagged for a closer look

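In 4 of 52 groups of 6 libraries tested, the library at one end lay far from the others by Dixon's ratio at its 95% critical value, and chance does so in about 1 in 20 groups. ABCA2 with osimertinib was 0.202 CPM in Sample 4c, from 1 count, and 0 in the other 5. TNFRSF6B with osimertinib was 0 CPM in Sample 5b, and its nearest library held 1.62 CPM. S100A9 with osimertinib was 0 CPM in Sample 5c, and its nearest library held 1.39 CPM. The mitochondrially encoded share of counts without osimertinib was 1.54% in Sample 3a, against 0.774% in the nearest library.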

How the results depend on the processing

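The directions of the 96 called named genes held in every setting tried, while the counts of calls moved widely. For the osimertinib main effect 410 genes were called, and 917 by DESeq2, 113 without the replicate block, 1270 with letters b and c only, 332 with all 15 libraries in one fit, and 126 to 959 with 1 library left out. Without 1,25(OH)2D3 the count of 8 became 170 by DESeq2, 21 with at least 10 counts in every library, 175 with letters b and c only, and 0 to 35 with 1 library left out. With 1,25(OH)2D3 the count of 40 became 408, 82, 12 without the replicate block, 354, and 0 to 183 in the same order. The interaction count of 0 became 14 by DESeq2. The 151 genes of the 1,25(OH)2D3 main effect became 395 by DESeq2, 51 without the block, 80 with letters b and c only, and 52 to 166 with 1 library left out. Chosen after seeing the data, a fit without the block and without Sample 3a called 258 and 45 genes for the osimertinib and 1,25(OH)2D3 main effects. The cause was not tested.

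Of the 96 named calls, 39 passed without the block, 93 with letters b and c only, and 95 each by DESeq2 and without Sample 3a. In the fits that left out 1 library 41 passed each time, and 55 were lost at least once. Each of the 12 libraries was closest to one of its own letter, as a hint from the data. Estimates that changed sign belonged to uncalled genes. FAM76A was 0.03 on the log2 scale with letters b and c only, and with 1 library left out it ranged from -0.34 to 0.26, EPHA2 from -0.19 to 0.02, STK11IP from -0.40 to 2.23, and CYP24A1 from -0.32 to 0. A floor of 3 counts was 0.489 to 0.685 CPM, which limits genes such as EGR1, CD52, and ABCA2.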

Other observations

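Several genes outside the lists passed in each fit that left out 1 library, and all were noticed after their values were seen. RRAGD, a Rag GTPase that signals amino acid supply to mTORC1, ranged over 10.9 to 37 CPM without and 30.4 to 84.9 CPM with osimertinib (log2 fold change 1.61 ± 0.13, adjusted p = 0.000334). SLC43A2, an amino acid transporter, ranged over 43.9 to 63 CPM without and 104 to 182 CPM with osimertinib (log2 fold change 1.26 ± 0.11, adjusted p = 0.000455). XPO1, the nuclear export receptor, ranged over 203 to 284 CPM without and 507 to 756 CPM with osimertinib (log2 fold change 1.17 ± 0.12, adjusted p = 0.00141), and ID2, an inhibitor of helix-loop-helix factors, over 40.7 to 63.7 CPM without and 75.1 to 139 CPM with osimertinib (log2 fold change 0.96 ± 0.09, adjusted p = 0.00119). TGFBR2, a TGF-beta receptor, was lower (log2 fold change -0.74 ± 0.1, adjusted p = 0.00645). EFNA1, an ephrin, was higher (log2 fold change 0.91 ± 0.18, adjusted p = 0.0277) but lost its call without any 1 of Samples 2c, 3b, 3c, 4b, 4c, 5a, 5b, or 5c.

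Zinc finger genes of one stretch of chromosome 19 (chr19:11597483-12484816, GRCh38.p14) were noticed after their values were seen. Of 21 tested ZNF symbols there, 8 were higher and 0 lower, 19 had a positive estimate, and the median log2 fold change was 0.56, against 6 higher and 2 lower of 210 ZNF symbols elsewhere on the chromosome (median 0.07). The medians of the 6 letter pairs lay between 0.18 and 0.94. These genes are close copies of each other, so Kallisto can assign reads of one to another, and the members are not independent. Histone symbols (HIST) were also noticed after their values were seen. Of 65 tested, 9 were higher (13.8%) and 0 lower, against 1.73% and 1.59% of all tested genes, with 61 positive estimates and a median of 0.30.

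MTRNR2L1, a nuclear gene similar to mitochondrial rRNA, had 224 to 620 CPM with vehicle, 166 to 485 CPM with 1,25(OH)2D3, 450 to 632 CPM with osimertinib, and 52.3 to 106 CPM with both. Its osimertinib effect differed between the conditions by -2.7 on the log2 scale (edgeR, unadjusted p = 3.24e-05, adjusted p = 0.348). MTRNR2L8, a related copy, differed by -1.73 (adjusted p = 0.348). Reads can be shared between these near-identical copies, so both values are uncertain.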
